A study of Mus musculus with 4 samples.

Results

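The canonical and variant histone genes of mouse were 80 of the 24190 gene symbols in the deposited tables. They were taken by name: symbols that start with Hist1h to Hist4h, H2afv, H2afy, H2afz, H3f3 or H1f, without names marked as pseudogenes. Of these, 68 carry a Hist name and are called replication-dependent here, with 6 H1, 20 H2A, 17 H2B, 12 H3 and 13 H4 genes. The other 12 are called variant: H1f0, H1fnt, H1fx, H2afv, H2afy, H2afy2, H2afy3, H2afz, H3f3a, H3f3aos, H3f3b and H3f3c. GENCODE M21 annotates Hist1h2aj, Hist1h2al, H2afy3 and H3f3c as pseudogenes and H3f3aos as an antisense RNA, so the names cover more than working histone genes. H2afx, H2afj and Cenpa are not covered by the rule and are given only beside the members.

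The RNA came from E14Tg2a, an established male mouse embryonic stem cell (ESC) line, kept in serum-free N2B27 medium with the MEK inhibitor PD0325901 and the GSK3β inhibitor CHIR99021. Each of 2 clonal lines carried the promoter of Zscan4c stably integrated, ahead of GFP alone in the line called GFP-only here and ahead of a GFP-Zscan4c fusion in the line called the fusion line. Fluorescence sorting gave from each line a GFP-negative population, labelled pluripotent, and a GFP-positive population, labelled 2C-like after the 2-cell embryo, with 1 library for each of the 4 populations. There is therefore no replicate error within a population, and nothing says that the sorts came from separate cultures. Values are listed throughout in library order: first the GFP-negative and GFP-positive cells of the GFP-only line, then the GFP-negative and GFP-positive cells of the fusion line. They are TPM, a share of transcripts scaled for length, summed per gene; read depth is unknown, and in bulk RNA fewer cells with a transcript and less of it per cell cannot be told apart.

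The 4 libraries differed in their low values. In library order, 48.4%, 11.8%, 19.5% and 11.6% of all symbols had a value of exactly 0. Of the 80 histone genes, 6, 5, 6 and 4 were listed at 0 in library order, so they shared little in the excess of the first library. All 14 markers of 2C-like cells with a row, such as Zscan4d and Zscan4f, were 2-fold or more higher in the GFP-positive library of both lines. That list was chosen with earlier results of these data known and includes Zscan4c, whose promoter drove the sort. It is therefore no independent check of the labels. Of the 9 pluripotency markers, the ESC factors Sox2 and Nanog were at 434 TPM and 299 TPM or more in every library. At 2-fold, 0 of the 9 were higher and 2 lower in GFP-positive cells of the GFP-only line, against 33.2% and 7.48% of all symbols. In the fusion line 2 were higher and 0 lower, against 8.23% and 3.14%. These markers thus did not separate the sorts the same way in both lines. One marker, Dppa5a, was at 41.4 TPM in the GFP-negative library of the fusion line and at 2280 TPM or more in the others. Among feeder and fibroblast markers, Vim was at 310, 190, 8.16 and 178 TPM. Thy1 was at 0, 11.9, 0 and 7.27 TPM, and the collagens Col1a1 and Col1a2 were at 0.114 TPM or less in all libraries.

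Histones package DNA into nucleosomes, in which pairs of H2A, H2B, H3 and H4 form the core and the linker histone H1 binds where DNA enters and leaves. Replication-dependent histone genes lie in clusters and are transcribed during S phase, and their mRNAs normally end in a conserved stem-loop instead of a poly-A tail. Variant histones such as H2A.Z, macroH2A and H3.3 are made from ordinary polyadenylated mRNAs and can be put into chromatin outside S phase. Because the libraries were selected for poly-A RNA with oligo-dT and copied with random hexamers, the level of a replication-dependent gene here is what was recovered from poly-A selection and may not follow its total mRNA.

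Of the 68 replication-dependent genes, 55 lay within a 2.22 Mb stretch of chromosome 13 (chr13:21715763-23934851, GRCm38), the Hist1 cluster. Hist1h2al, which carries a Hist1 name, lay outside it at chr13:51202727-51203065. The Hist2 cluster held 9 genes on chromosome 3 (chr3:96219865-96269141), Hist3 held 2 genes on chromosome 11 and Hist4 held 1 gene on chromosome 6. The feature that sets their transcripts apart, the histone 3′ stem-loop, was searched by its consensus of 16 bases in the GENCODE M21 sequence of each listed transcript. It was found in 43 of the 68 replication-dependent genes, in 0 of the 12 variant genes and in 25 of 58285 other listed transcripts (0.0429%). Many gene models without it stop early, so a missing match says only that the letters were not in the annotated transcript. The following 6 stem-loops, 1 or 2 for each class, are those of genes described further on; capitals mark the stem-loop and lower case the 5 bases on either side, written 5′ to 3′ as in the mRNA with T for U.

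Hist1h1c (chr13:23739507-23739532, plus strand): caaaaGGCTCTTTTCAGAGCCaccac
Hist1h2ag (chr13:22042478-22042503, minus strand): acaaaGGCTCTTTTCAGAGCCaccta
Hist1h2bj (chr13:22043633-22043658, plus strand): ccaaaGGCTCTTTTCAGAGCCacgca
Hist1h3b (chr13:23752815-23752840, plus strand): ccaaaGGCTCTTTTCAGAGCCaccca
Hist1h3c (chr13:23745042-23745067, minus strand): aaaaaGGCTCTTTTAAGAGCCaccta
Hist1h4d (chr13:23581945-23581970, plus strand): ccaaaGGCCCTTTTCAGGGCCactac

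The form shown for Hist1h1c, Hist1h2ag, Hist1h2bj and Hist1h3b was the commonest and occurred in 23 genes of the 43. The form of Hist1h4d occurred in 7 genes, all of them H4, and that of Hist1h3c in 6 genes of the H1, H2B and H3 classes. Members of the H1, H2A, H2B and H3 classes thus carry identical letters, while the forms found in H4 genes occurred in no other class. In 21 transcripts the annotated sequence ended within 60 bases after the stem-loop, as in the 3′-processed mRNA, and in 22 it ran on further; the remaining 26 of the 69 transcripts had no match. Within H2A, both kinds of transcript were lower in the GFP-positive libraries. Summed TPM of the 11 H2A transcripts with a stem-loop were 2471, 1658, 2175 and 1947 in library order, and those of the 9 without a match were 2011, 1336, 1743 and 1573.

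**Figure D1:**
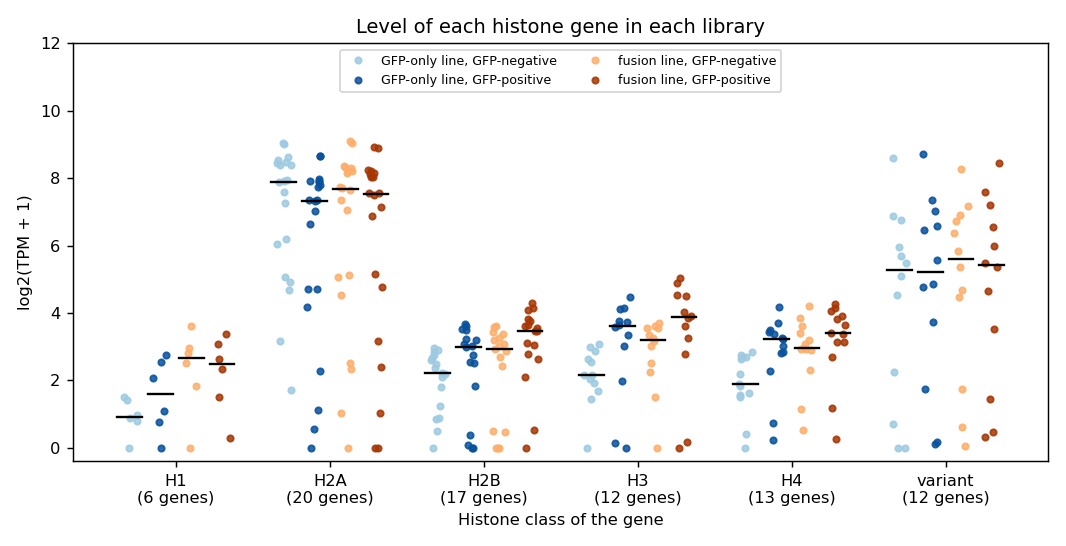
Level of each of the 80 histone genes as log2(TPM + 1) (vertical axis) by histone class (horizontal axis), with 1 point per gene, 1 colour per library and a black bar at the median of the class. Most H2A genes and several variant genes sit well above the H1, H2B, H3 and H4 genes in all 4 libraries.

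The recovered RNA of replication-dependent genes was mostly H2A. Their summed TPM was 4640, 3330, 4232 and 4011 in library order, against 822, 1012, 902 and 966 for the variant genes. H2A genes alone summed to 4482, 2994, 3918 and 3520 TPM, or 96.6%, 89.9%, 92.6% and 87.8% of the replication-dependent sum. H2B summed to between 60.7 and 160.0 TPM, H3 to 47.6, 121, 87.7 and 173 TPM, H4 to 43.0, 99.2, 99.3 and 130 TPM, and H1 to 6.04, 15.7, 31.3 and 27.9 TPM. The sum of H2A was thus 73.9, 29.9, 40.8 and 22.0 times that of H2B, although both proteins enter the nucleosome in equal number.

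These classes went different ways between the sorts. The H2A sum was lower in GFP-positive than in GFP-negative cells in both lines, at 0.668 times in the GFP-only line and 0.898 times in the fusion line. The H2B sum was 1.65 and 1.66 times higher, the H3 sum 2.54 and 1.97 times and the H4 sum 2.31 and 1.31 times, while H1 was at 2.59 times in the GFP-only line and 0.894 times in the fusion line. Because H2A carries most of the total, the replication-dependent sum followed it, with log2 ratios of -0.48 and -0.08; without H2A these became 1.09 and 0.64, an alternative added after seeing the data. Variant genes were at 1.23 and 1.07 times. These are ratios of deposited TPM with 1 library on each side and carry no test, and the GFP-negative library of the GFP-only line, the one with 48.4% of symbols at 0, was the lowest of the 4 for H1, H2B, H3 and H4 and the highest for H2A. Its part in the GFP-only line's ratios was not tested.

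**Figure D2:**
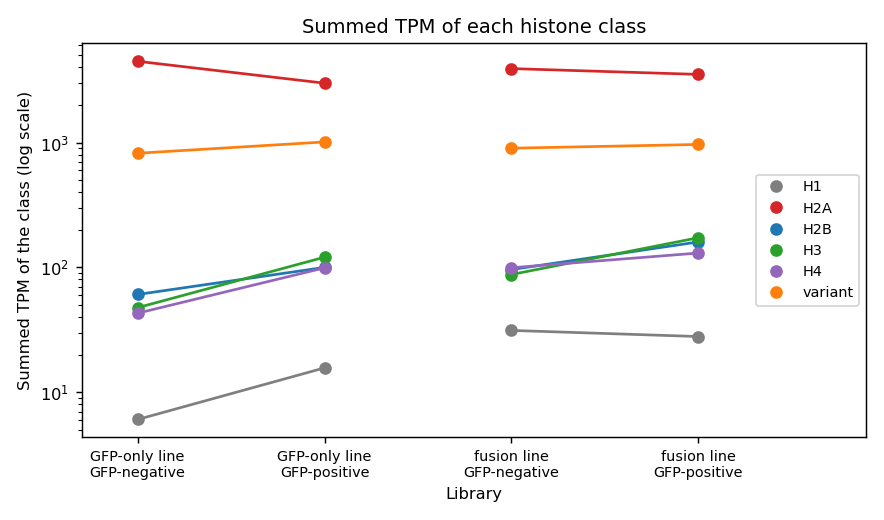
Summed TPM of each histone class (vertical axis, log scale) in each library (horizontal axis), with lines joining both sorts of a line. H2A is lower and H2B, H3 and H4 are higher in the GFP-positive library of each line as deposited; medians over genes turn below 0 under quantile normalization for H2B in the GFP-only line and for H4 in both lines.

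Gene by gene, ratios are differences of log2(TPM + 1), which understate the change of low genes, and a gene was counted when it was 2-fold or more apart and at 5 TPM or more in either library. In the GFP-only line, 18 of 49 replication-dependent genes were higher in GFP-positive cells (36.7%), where the share over all 11062 symbols was 33.2%, so their overall count was near the background. Another 3 were lower (6.12%, against 7.48% of all symbols). Among 9 variant genes 1 was higher and 1 lower. In the fusion line 7 of 55 replication-dependent genes were higher (12.7%) and 1 was lower (1.82%), against 8.23% and 3.14% of 10981 symbols, and of 9 variant genes 0 were higher and 1 was lower.

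The classes split within these counts. In the GFP-only line the higher genes were 8 of 9 H3 genes, 7 of 10 H4 genes, 2 of 10 H2B genes and the only H1 gene at that level, Hist1h1a, and 0 of 19 H2A genes, beside a background of 33.2%. In the fusion line they were 3 of 14 H2B, 2 of 10 H3, 1 of 11 H4 and 1 of 17 H2A genes. Under quantile normalization, which forces all libraries to the same distribution, 0 replication-dependent genes were 2-fold or more higher in the GFP-only line, so the size of the count depends on the scaling. Over both lines, 3 of the 56 genes at 5 TPM or more in each were 2-fold or more higher in each (Hist1h2bj, Hist1h3b and Hist1h3c; 4.11% of 10245 symbols were) and 1 was lower in each (H2afy; 0.654% of symbols were).

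**Figure D3:**
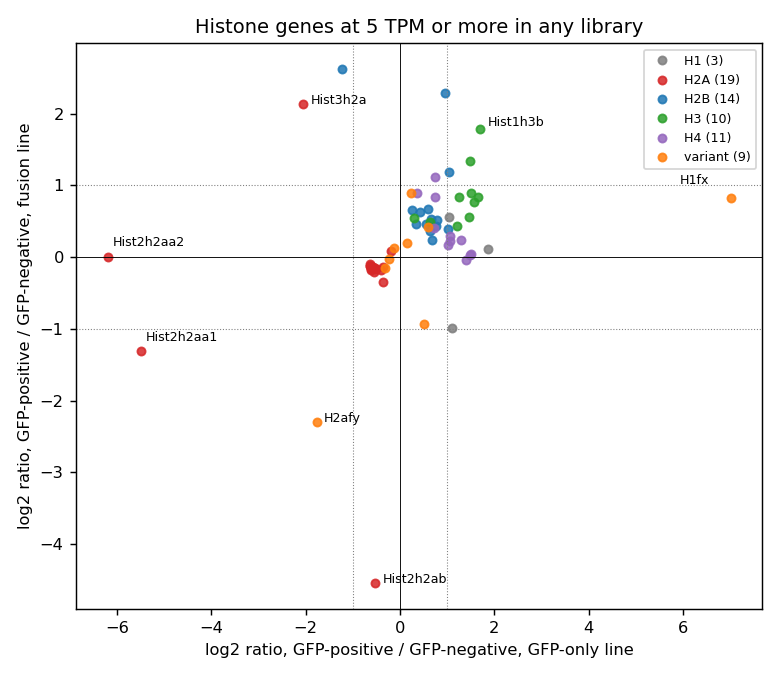
Log2 ratio of GFP-positive to GFP-negative cells on the log2(TPM + 1) scale in the GFP-only line (horizontal axis) and in the fusion line (vertical axis) for the 66 histone genes at 5 TPM or more in any library, coloured by class, with dotted lines at 2-fold. Most H2A genes form a tight group below 0 on both axes, H3 genes lie to the upper right, and H2afy lies at the lower left with -1.76 and -2.30.

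A model over all 4 libraries (limma, with GFP status and line as terms and 1 residual degree of freedom) called 0 of 14379 genes at an adjusted p under 0.05 (0%), with 972 at an unadjusted p under 0.05 (6.76%). Of the 70 histone genes in it, 0 were called and 4 had an unadjusted p under 0.05. H2afy came first with a log2 difference of -2.03 (SE 0.32, limma adjusted p = 0.460), followed by H3f3b at 0.51 (SE 0.15, adjusted p = 0.623), Hist1h3c at 1.41 (SE 0.43, adjusted p = 0.653) and Hist1h3b at 1.74 (SE 0.59, adjusted p = 0.683). In simulated data of this size, with normal noise at the spread that the model itself estimated, it called 31 of 100 genes changed by 2 on the log2 scale. With the real values it called 0 genes, although Zscan4d differed by 5.44 in the GFP-only line and 8.37 in the fusion line. The simulated share may therefore be too high for these data. Changes of the size seen in most histone genes would often be missed. No histone gene is therefore said to have changed, and what follows describes levels.

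The H1 genes encode linker histones and were the lowest class. Hist1h1c was at 1.84, 4.86, 6.01 and 9.28 TPM in library order. Hist1h1a was at 0.843, 5.76, 6.72 and 7.37 TPM, and Hist1h1d at 0.955, 3.22, 11.3 and 5.21 TPM. All 3 had their lowest value in the first library, and the lines disagreed on Hist1h1d, with log2 ratios of 1.11 and -0.99. Hist1h1b and Hist1h1e did not exceed 4.69 TPM, and Hist1h1t, the testis form, was at 0.219 TPM in 1 library and listed at 0 in the rest. In the GFP-only line the class median of 0.52 turned to -0.40 under quantile normalization.

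The H2A genes of the Hist1 cluster formed a narrow group. Leaving aside Hist1h2aa and Hist1h2al, the 13 genes Hist1h2ab, Hist1h2ac, Hist1h2ad, Hist1h2ae, Hist1h2af, Hist1h2ag, Hist1h2ah, Hist1h2ai, Hist1h2aj, Hist1h2ak, Hist1h2an, Hist1h2ao and Hist1h2ap had medians of 333, 224, 293 and 262 TPM in library order. Their log2 ratios ran only from -0.64 to -0.37 in the GFP-only line and from -0.21 to -0.09 in the fusion line. They were below 0 in 13 of 13 genes in each line under deposited, median-ratio and quantile scaling alike. As deposited, 27.7% and 31.5% of all symbols were below 0. Most of these genes share much of their sequence with other genes, as given below, so they are not 13 separate observations. Hist1h2ap, the highest, was at 532, 403, 545 and 481 TPM, and its neighbour Hist1h2ao at 519, 402, 525 and 476 TPM. Hist1h2ak, the lowest of the 13, was at 154, 99.4, 132 and 117 TPM. None of the 13 reached 2-fold, and in each line the GFP-negative library was the higher.

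The remaining H2A genes lay outside that group. Hist1h2aa, a testis-type H2A gene, was at 2.26, 3.82, 4.75 and 4.30 TPM, near the level of H2B genes. Hist1h2al was at 29.0, 25.4, 32.3 and 34.5 TPM. In the Hist2 cluster, Hist2h2ac was at 32.5, 25.1, 33.6 and 26.1 TPM, lower in the GFP-positive library of both lines by under 2-fold.

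Hist2h2aa1 and Hist2h2aa2 lie in the Hist2 cluster and were high in a single library. Hist2h2aa1 was at 65.0, 0.463, 4.09 and 1.04 TPM. Hist2h2aa2 reached 72.5 TPM in the first library and was listed at 0 in the other 3. Hist2h3b, an H3 gene of the same cluster, had the same pattern at 4.83 TPM in that library and 0 in the others. Gm20634, an annotated gene that overlaps these in sequence, was at 14.5, 1.07, 6.93 and 4.14 TPM, and every 50-base word of Hist2h2aa2 occurs in another GENCODE M21 gene. Hist2h2ab was at 24.8, 17.0 and 22.3 TPM in the first 3 libraries and listed at 0 in the GFP-positive library of the fusion line.

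Values of single H2A genes are uncertain because their sequences are. A median of 73.2% of the 50-base words of an H2A gene's transcripts occur in another GENCODE M21 gene, against 59.4% for H2B, 62.0% for H3, 39.5% for H4, 1.13% for H1 and 4.01% for variant genes. For Hist1h2ao and Hist1h2ap the shares were 93.5% and 93.1%, while for Hist1h2ac, at 191, 129, 163 and 141 TPM, the share was 14.1% and for Hist1h2aa it was 2.35%. The annotated transcript of Hist1h2ac is 2482 bases long, 2010 of them after the stem-loop, and 342 of its 2433 words are shared. Its low share thus reflects its length and does not show that its value is free of shared reads. How reads that match several genes were divided is not given, and its part in the high H2A level was not tested. Shared words also reach outside the members. H2afx, a variant H2A that marks DNA breaks when phosphorylated and is not covered by the rule, was at 533, 466, 383 and 480 TPM and shares words with 18 of the 20 H2A genes, though only 6.14% of its own words. Gm11336 shares words with all 20 H2A genes, 52.6% of its own, and was at 138 TPM in each GFP-positive library and at 10.5 TPM or less in each GFP-negative one, opposite to the H2A genes.

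The H2B genes encode the partner of H2A in the nucleosome. Hist1h2bj was at 5.11, 11.6, 7.52 and 18.5 TPM in library order, with log2 ratios of 1.05 and 1.19. It was the only H2B gene 2-fold or more higher in both lines, but a pseudocount of 5 TPM gave 0.72 and 0.91 and quantile normalization gave 0.10 in the GFP-only line. Hist1h2bl was at 3.65, 8.39, 9.31 and 12.5 TPM, with 1.01 in the GFP-only line and 0.39 in the fusion line. Hist1h2bk, the highest by mean, was at 6.71, 11.2, 11.2 and 16.5 TPM.

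The other H2B genes with a mean of at least 5 TPM were Hist1h2bb, Hist1h2bc, Hist1h2bf, Hist1h2bg, Hist1h2bh, Hist1h2bm, Hist1h2bn and Hist1h2bp, and each was higher by under 2-fold in the GFP-positive library of both lines as deposited. Over the 15 Hist1 H2B genes, 13 had a ratio above 0 in the GFP-only line and 14 in the fusion line, as had 61.3% and 61.9% of all symbols; under quantile normalization these became 1 and 14. Hist1h2bq and Hist1h2br were listed at 0 in both middle libraries of the order ; in the first and last, Hist1h2bq stood at 0.792 and 3.30 TPM and Hist1h2br at 1.36 and 5.15 TPM. Hist3h2ba was at 0.829, 2.57, 0.410 and 5.87 TPM. Around the threshold of 5 TPM for naming, Hist1h2bm was just inside at a mean of 5.10 TPM and Hist1h2ba just outside at 4.94 TPM.

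Because H2A and H2B genes of the clusters often stand head to head and share a promoter, the listed values of both classes were set side by side at these loci. There were 13 such pairs, with 175 to 305 bases between the annotated starts. In Hist1h2ag and Hist1h2bj, which include the H2B gene higher in both lines, the region between the RefSeq starts (chr13:22042950-22043197, GRCm38.p6, plus strand) reads as follows, with every CCAAT box in capitals as CCAAT or, on the opposite strand, ATTGG.

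Hist1h2ag and Hist1h2bj shared promoter: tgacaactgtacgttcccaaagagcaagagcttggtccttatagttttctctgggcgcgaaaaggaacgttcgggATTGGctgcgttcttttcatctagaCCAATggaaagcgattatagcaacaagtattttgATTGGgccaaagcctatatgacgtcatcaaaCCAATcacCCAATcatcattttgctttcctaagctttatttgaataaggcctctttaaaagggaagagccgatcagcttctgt

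The stretch holds 5 CCAAT boxes, 0 TATAAA motifs and 0 octamers, ATTTGCAT, on either strand. Hist1h2ag, read leftward from it, was at 239, 161, 211 and 188 TPM. Hist1h2bj, read rightward, was at 5.11, 11.6, 7.52 and 18.5 TPM. Around this shared region the listed value of the H2A gene was lower and that of the H2B gene higher in the GFP-positive library of each line. Of their 50-base words, 78.9% and 59.4% occur in other genes, so these values may hold reads of other loci, and the same caution applies to the other pairs. The H2A gene was below 0 and the H2B gene above 0 in 9 of 13 pairs in the GFP-only line and in 13 of 13 in the fusion line as deposited. Of all symbols, 27.7% were below and 61.3% above 0 in the GFP-only line, and 31.5% and 61.9% in the fusion line. Genes of each class share sequence, so the pairs may repeat the direction of the class and are not 13 separate observations. The exceptions in the GFP-only line were the pairs of Hist1h2aa, Hist1h2ao, Hist1h2ap and Hist2h2ac. Under quantile normalization 1 of the 15 Hist1 H2B genes remained above 0 in the GFP-only line, so the split there holds for deposited and median-ratio values. The median ratio of H2A to H2B TPM over pairs was 75.9, 21.7, 28.7 and 22.6 in library order, over the 13, 11, 11 and 13 pairs with H2B above 0.

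**Figure D4:**
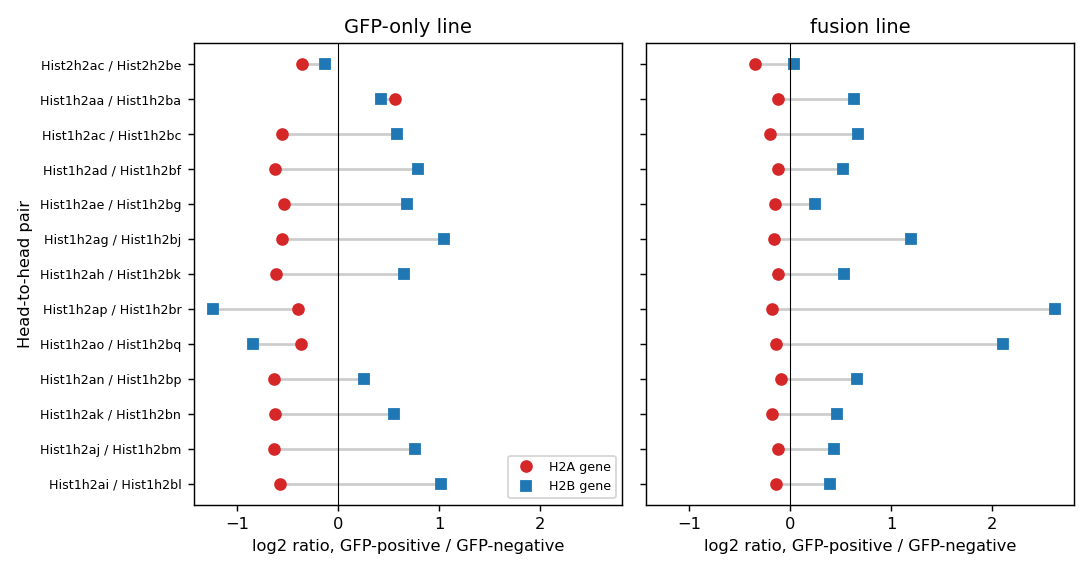
Log2 ratio of GFP-positive to GFP-negative cells on the log2(TPM + 1) scale (horizontal axis) for the H2A gene (circle) and the H2B gene (square) of each of 13 head-to-head pairs (vertical axis), by line. As deposited, the H2B square lies right of 0 and the H2A circle left in 9 pairs of the GFP-only line and 13 of the fusion line. H2B ratios of the GFP-only line fall to or below 0 under quantile normalization for all but 1 Hist1 gene. Genes of each class share sequence, so the pairs are not 13 separate observations.

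Promoters of the classes also differed in motifs, as a description only. A RefSeq promoter, 250 bases before to 50 after the start, was matched for 67 of the 80 genes. CCAAT on either strand was present in all matched H1, H2A, H2B and H3 promoters (6, 18, 15 and 10), in 3 of 12 H4 and 3 of 6 variant promoters and in 37.4% of all 32851 promoters. TATAAA was in 4 of 6 H1, 11 of 18 H2A, 8 of 15 H2B, 4 of 10 H3, 8 of 12 H4 and 0 of 6 variant promoters, against 13.6% of all. The octamer ATTTGCAT was in 7 H2A and 5 H2B promoters, in 0 of the others and in 1.74% of all. H2A and H2B, which went opposite ways, thus shared these motifs, as the head-to-head arrangement requires in part.

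The H3 genes of the Hist1 cluster belonged to the class with the highest median ratio in each line as deposited. Hist1h3b was at 3.15, 12.5, 8.49 and 31.6 TPM, with log2 ratios of 1.71 and 1.78. Hist1h3c was at 6.93, 21.2, 10.7 and 28.6 TPM, with 1.48 and 1.34. Hist1h3a was at 2.76, 10.9, 7.10 and 13.5 TPM. Both GFP-positive libraries lay above both GFP-negative libraries in these 3 and in the other 6 Hist1 H3 genes, 9 of 9 in all, as they did in 33.2% of 11798 symbols at 5 TPM or more in any library. The other 6 were Hist1h3d, Hist1h3e, Hist1h3f, Hist1h3g, Hist1h3h and Hist1h3i. H3 genes share a median of 62.0% of their 50-base words with other genes, and Hist1h3h and Hist1h3i share 93.9% and 87.6%. These values may hold reads of one another, so the 9 genes are not 9 separate observations. In all 9 the lowest value was that of the GFP-negative library of the GFP-only line and the highest that of the GFP-positive library of the fusion line. All 9 were higher in GFP-positive cells of both lines under deposited and median-ratio scaling, and under quantile normalization 8 of 9 in the GFP-only line and 9 of 9 in the fusion line. The medians of the 9 log2 ratios were 1.48 and 0.84 as deposited and 0.45 and 0.69 after quantile normalization, beside medians over all symbols at 5 TPM or more of 0.19 and 0.14 as deposited and 0.01 and -0.04 after it.

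As deposited, 8 of the 11 Hist1 H4 genes had a larger ratio in the GFP-only line than in the fusion line, a difference that was not tested; Hist1h4b, Hist1h4i and Hist1h4m did not. Hist1h4d, the highest by mean, was at 5.40, 17.3, 17.5 and 18.1 TPM, so that the GFP-negative library of the GFP-only line alone stood apart. Hist1h4k was at 2.69, 9.27, 11.2 and 11.4 TPM with the same pattern. Hist1h4i was at 5.46, 9.77, 6.58 and 15.5 TPM and was the H4 gene higher by 2-fold or more in the fusion line, at 1.12. Hist1h4a, Hist1h4b, Hist1h4c, Hist1h4f, Hist1h4h, Hist1h4m and Hist1h4n make up the rest with a mean of at least 5 TPM. Of 11 Hist1 H4 genes, 11 and 10 had a ratio above 0 in the GFP-only and fusion lines as deposited, 11 and 8 after median-ratio scaling, and 4 and 5 after quantile normalization, so the direction for H4 depends on the scaling.

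Among the variant genes, H2afy was the 1 that was 2-fold or more apart in the same direction in both lines. It encodes macroH2A1, an H2A with a large extra domain that is found on silenced chromatin, and lies at chr13:56073619-56136361 on the minus strand. Its summed TPM was 43.7, 12.2, 56.4 and 10.6 in library order, so both GFP-negative libraries lay above both GFP-positive ones. The log2 ratios were -1.76 and -2.30, and over 2 other pseudocounts, median-ratio scaling and quantile normalization they stayed between -1.98 and -1.50 and between -2.77 and -1.97. H2afy was the 1 histone gene called by limma after quantile normalization (log2 -2.38, limma adjusted p = 1.19e-05). It was 1.43% of 70, against 328 of 14379 genes (2.28%). The smallest limma adjusted p in that setting was 4.73e-114 at 1 residual degree of freedom, so its p-values are not taken as support. The main fit gave H2afy a limma adjusted p of 0.460. Without the GFP-negative library of the fusion line the log2 difference was -1.85. That last fit rests on the first library, with 48.4% of symbols at 0, as the lone one of GFP-negative cells.

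The transcripts of H2afy were not all alike. The protein-coding transcript ENSMUST00000016081 was at 17.5, 0.711 and 45.1 TPM and was listed at 0 in the last library. The other 7 listed transcripts, which include a second protein-coding one at 0.603 TPM or less, summed to 26.2, 11.5, 11.2 and 10.6 TPM. In the fusion line nearly the whole difference thus lay in ENSMUST00000016081, while in the GFP-only line both parts were lower in GFP-positive cells. The paralogue H2afy2, which encodes macroH2A2, was at 33.2, 28.2, 24.8 and 24.2 TPM, with log2 ratios of -0.23 and -0.03. H2afy3, the pseudogene, was at 3.78, 2.34, 2.34 and 1.73 TPM.

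The H2A.Z genes were near level. H2afz, which encodes H2A.Z.1, was the most abundant variant gene at 383, 423, 307 and 351 TPM. H2afv, which encodes H2A.Z.2, was at 117, 94.1, 104 and 93.5 TPM. The log2 ratios were 0.14 and 0.19 for H2afz and -0.31 and -0.15 for H2afv, and the difference between lines in the same sort was larger than that between sorts for H2afz.

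H3.3, the replacement form of H3, comes from H3f3a and H3f3b. H3f3b was at 107, 162, 143 and 191 TPM, higher in the GFP-positive library of each line, with log2 ratios of 0.60 and 0.42. H3f3a was at 61.3, 87.5, 120 and 62.4 TPM, with ratios of 0.51 and -0.93, so the lines went opposite ways. Its transcripts traded places: ENSMUST00000161308 was at 56.2, 48.9, 20.0 and 51.9 TPM and ENSMUST00000081026 at 4.66, 21.6, 63.8 and 10.1 TPM. H3f3c, a pseudogene that shares 73.8% of its 50-base words with other genes and most of them with H3f3a, was at 50.9, 46.6, 40.4 and 44.1 TPM. H3f3aos, antisense to H3f3a, was at 0.630 TPM or less throughout.

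Variant linker histones were led by H1fx and H1f0. H1fx was listed at 0 in the first library and was at 129, 82.0 and 146 TPM in the others. A gene at 82.0 TPM in 1 GFP-negative library and at 0 in the other gives no fold, and the 0 falls in the library with 48.4% of symbols at 0. H1f0, made in cells that stop dividing, was at 22.1, 26.3, 21.2 and 40.3 TPM, with the highest value in the GFP-positive library of the fusion line. H1fnt, a testis gene, did not exceed 0.236 TPM.

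**Figure D5:**
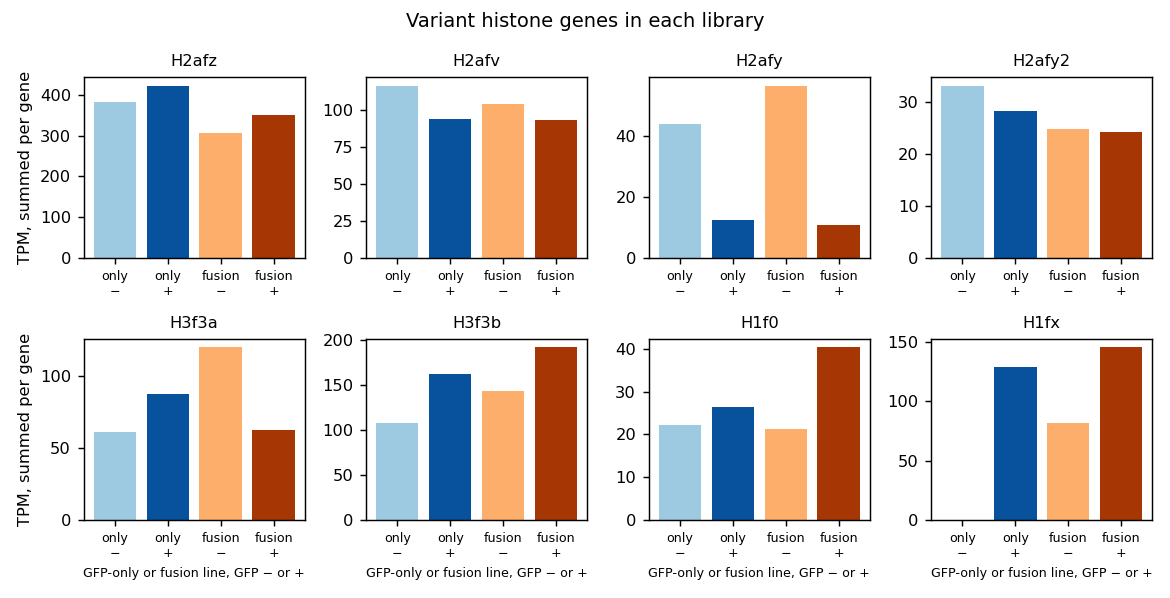
TPM summed per gene (vertical axes, starting at 0 and scaled for each gene) of 8 variant histone genes in the 4 libraries (horizontal axes, only and fusion standing for the lines, − and + for the sort), with 1 bar per library and no error since each is 1 library. H2afy is at 43.7 and 56.4 TPM where GFP is absent and reaches 12.2 and 10.6 TPM where it is present, H3f3a goes opposite ways in the lines, and H1fx has no bar in the library where it is listed at 0.

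The construct itself was compared in cells of the same sort. In GFP-positive cells, 69 of 80 histone genes were higher in the fusion line than in the GFP-only line, by any amount, and 9 were lower. Among all symbols 12987 were higher (53.7%) and 10401 lower (43.0%). Of the replication-dependent genes 64 were higher and 2 lower, with a median log2 difference of 0.33 and 0.30 after median-ratio scaling. Many of these genes share sequence and each side is 1 library, so they are not separate observations. At 2-fold or more, 3 of 55 replication-dependent genes were higher and 1 lower, against 5.71% and 4.05% of 11126 symbols, so few reached that size. The variant genes were divided, 5 higher and 7 lower. In GFP-negative cells 14 of 51 replication-dependent genes were 2-fold or more higher in the fusion line and 3 lower. Against 30.1% and 8.49% of 10672 symbols, this pooled share was near the background. The classes split here too, with 3 of 3 H1, 4 of 8 H3, 6 of 10 H4, 1 of 11 H2B and 0 of 19 H2A genes higher. A split of this kind was thus also present between libraries of the same sort. Each line is a single clone here, so the construct and the clone cannot be told apart.

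Genes that process, carry or accompany histones were counted in the same way, to be read beside 33.2% of all symbols higher and 7.48% lower in the GFP-only line and 8.23% higher and 3.14% lower in the fusion line. Of 22 genes for histone mRNA 3′ processing at 5 TPM or more, 8 were 2-fold or more higher (36.4%, near that share) and 1 lower in the GFP-only line and 1 higher (4.55%) and 0 lower in the fusion line. Slbp, which binds the stem-loop, was at 46.5, 39.8, 37.6 and 45.7 TPM. Lsm10, a protein of the U7 particle that directs the cleavage, was listed at 0 in the first library and was at 4.59, 0.886 and 13.8 TPM in the others, and Casp8ap2 and Cpsf2 were at 0 in that library only. Of 28 and 29 chaperone and exchange genes, 4 were higher (14.3%) and 3 lower (10.7%) in the GFP-only line and 2 higher (6.90%) and 3 lower (10.3%) in the fusion line. Cabin1 and Supt6 were listed at 0 in the first library only.

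Of 29 S phase genes, 7 were higher (24.1%, below the 33.2% of all symbols) and 1 lower in the GFP-only line and 0 higher (against 8.23%) and 1 lower in the fusion line, with median log2 ratios of -0.18 and 0.01. Rrm1, a subunit of ribonucleotide reductase, was listed at 0 in the first library and was at 48.0, 45.1 and 51.3 TPM elsewhere. Pcna, the replication clamp, was at 5.57, 205, 133 and 168 TPM and Pola1 at 0.283, 26.1, 11.7 and 21.4 TPM, so these too were lowest in that library. Rrm1, Pcna and Pola1 are named for the largest mean ratios of the list and do not stand for it. Others were highest in the first library, such as Rrm2 at 130, 67.8, 71.4 and 113 TPM and Cdt1 at 224, 146, 162 and 142 TPM. The further variant genes H2afj and Cenpa, the centromeric H3, were outside the rule; H2afj was at 27.3, 30.6, 27.8 and 7.10 TPM, and Cenpa at 91.1, 88.5, 76.4 and 117 TPM.

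Carry-over of RNA without a poly-A tail was gauged from small nuclear, small nucleolar and other such genes. They summed to 854, 1179, 1966 and 1148 TPM in library order, with 28 of 70 higher and 25 lower in the GFP-only line and 5 of 53 higher and 19 lower in the fusion line. The lower genes were 35.7% and 35.8%, against 7.48% and 3.14% of all symbols, and the higher ones 40.0% and 9.43%, against 33.2% and 8.23%. The sum was highest in the GFP-negative library of the fusion line, where H1 was the 1 replication-dependent class with its highest sum. The H1 genes were divided in this. Hist1h1d, at 11.3 TPM, Hist1h1b and Hist1h1e were highest there. Hist1h1a, Hist1h1c and Hist1h1t were highest in the GFP-positive library of the fusion line. Scarna9 was listed at 0 in the first library and at 19.2, 10.1 and 9.46 TPM in the others. Snord38a was at 13.1, 0.823, 18.8 and 0.795 TPM, and Snord42a had no value above 0 in GFP-negative cells of either line. These are named for their mean ratios and do not stand for the list. The highest values in the GFP-negative library of the fusion line were of other genes. Rn7s2 was at 19.8, 141, 356 and 157 TPM and Rn7s1 at 9.98, 136, 346 and 150 TPM. Rmrp was at 15.9, 67.0, 232 and 85.1 TPM and Rn7sk at 20.2, 60.5, 135 and 47.7 TPM. Like the sum, these were lowest in the first library. Some genes were instead highest in it, such as Snord34 at 57.8, 48.2, 48.6 and 38.9 TPM. The part of such carry-over, or of polyadenylated histone transcripts, in the levels of replication-dependent genes was not tested.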

How the data were processed

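Each of the 4 deposited tables holds TPM per transcript for 1 library. Per the labels' protocols, poly-A RNA was selected with oligo-dT and primed with random hexamers. Alignment and quantification tools, per the submitters' processing notes, were HISAT2 2.1.0 and StringTie 1.3.5 beside CASAVA, on GRCm38 (mm10); options, strandedness, annotation release and the handling of shared reads were not given in the sources used here. The tables list 58853 transcripts, 103 of them of the 80 histone genes, and add up to 66.6% to 69.1% of the full scale; GENCODE M21 has 82 genes that meet the naming rule, of which Hist2h2bb and H1foo are not analysed here.

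TPM were summed per symbol in Python 3.11.15 with pandas 2.3.3. Ratios are on log2(TPM + 1), with a pseudocount of 1 TPM, and 2-fold counts use genes at 5 TPM or more in either library, with no test. limma 3.58.1 in R 4.3.3 (lmFit, then eBayes with trend and robust set; two-sided p adjusted by Benjamini-Hochberg) was run on genes at 1 TPM or more in 2 libraries. The labels do not say that the libraries come from separate cultures, so its p-values measure only the spread between them. The fit was tested on simulated data for 14379 genes: of 100 genes changed by 2 on the log2 scale it called 31, and of 100 changed by 5 it called 76. The simulated noise was normal, at the spread that the model estimated, so these shares may be higher than for the real values, where it called 0 genes. Depth is unknown, so no counting error can be given. Promoters are from RefSeq (GRCm38.p6) and transcripts from GENCODE M21.

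The histone genes and all lists were chosen with earlier results of these data known. Named were replication-dependent genes with mean TPM of 5 and up, every variant gene, genes 2-fold apart the same way in both lines, and up to 3 genes a list with the largest mean ratio; other named genes were chosen after their values were seen. One list gene that the rule names is not reported here. Alternatives were pseudocounts of 0.1 and 5 TPM, median-ratio and quantile scaling, no filter, genes above 0 in all libraries, no line term and leaving out each library.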

Additional observations from a re-analysis of the deposited data

Results flagged for a closer look

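Hist3h2a, an H2A gene of the small Hist3 cluster at chr11:58954685-58956830, went opposite ways in the lines. It was at 8.04 and 1.19 TPM in GFP-negative and GFP-positive cells of the GFP-only line and at 1.05 and 8.03 TPM in those of the fusion line. The log2 ratios were -2.05 and 2.14. With 1 library per population the difference between the lines was not tested. The lower value in each line was near the pseudocount of 1 TPM. Of its 50-base words, 31.5% occur in other GENCODE M21 genes, all of them in Trim17. Hist3h2a was the 1 histone gene of 56 at 5 TPM or more in both lines that was 2-fold or more apart in opposite directions. So were 158 of 10245 symbols, a share near that of the histone genes.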

How the results depend on the processing

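Of 650 values recomputed under other settings, 565 kept their direction and side of the threshold or stayed within 1.5 times of a count. Part of these could not change. A pseudocount cannot turn the sign of a ratio, and leaving out pseudogenes or genes with an intron alters nothing in classes without them. The share kept is therefore no measure of how firm the results are. In the GFP-only line, replication-dependent genes 2-fold or more higher went from 18 to 5 with a pseudocount of 5 TPM and to 0 with quantile normalization. There, those lower went from 3 to 5 with no filter, and the 1 variant gene higher, H1fx, dropped out (0) among genes above 0 in all libraries. In the fusion line, replication-dependent genes lower went from 1 to 2 with a pseudocount of 0.1 TPM and with median-ratio or quantile scaling, to 3 with no filter and to 0 among genes above 0 in all libraries. Variant genes lower went from 1 to 2 with median-ratio and quantile scaling, which added H3f3a. Without H2A the log2 ratio of the replication-dependent sum was 1.09 in the GFP-only line and 0.64 in the fusion line, an alternative added after seeing the data; fewer genes in the sum is its construction. The variant sum of the fusion line went from 0.10 to -0.060 with median-ratio scaling. Of 64 named genes, quantile normalization turned 21 ratios of the GFP-only line and 8 of the fusion line from above to below 0, and median-ratio scaling turned 5 of the fusion line. Of these, 4 had been 2-fold or more higher, all in the GFP-only line under quantile normalization, and became -0.10 for Hist1h2bl, -0.26 for Hist1h4a, -0.079 for Hist1h4c and -0.066 for Hist1h4f. limma called 1 histone gene, H2afy, after quantile normalization; leaving out each library gave 0 to 15 calls, the 15 (21.4% of 70, against 29.2% of all genes) without the GFP-negative library of the fusion line, which leaves as the lone GFP-negative library, assumed to vary like the others, the one with 48.4% of symbols at 0. Other causes were not tested. The share of calls that were higher over all symbols moved from 81.6% to 65.6% in the GFP-only line (quantile). In the fusion line it moved from 72.4% to 65.4% and 59.8% (median-ratio, quantile), and scaling shifted the median ratio of all symbols by over 0.1. Directions of class medians thus rest on the scaling for H1 and H2B in the GFP-only line and for H4 in both lines. They also do for the variant genes, whose medians lay near 0. With median-ratio scaling these went from -0.0095 to 0.0028 in the GFP-only line and from 0.046 to -0.11 in the fusion line. Depth and the 1 library per population limit every value. The line term pairs both sorts of a line, and without it limma also called 0 histone genes.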
